A study of Arabidopsis thaliana with 6 samples.

Results

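The genes described are 39 Arabidopsis thaliana genes of 2 linked pathways, chosen by locus identifier from the 27655 genes of the expression table: 23 genes of the Calvin cycle, 14 of photorespiration and 2 carbonic anhydrases. RNA-seq was done on whole seedlings of 10 days, kept at 22 °C in long days (16 h light, 8 h dark), in 3 libraries of the line h3.3ko;HTR5 and 3 of the wild type Col (Columbia). H3.3 is the replacement variant of histone H3, which in Arabidopsis is encoded by HTR4, HTR5 and HTR8. The genotype name joins a loss of H3.3 genes to HTR5. The way the line was made is not stated in the sources used here. Nothing in the labels tells whether replicates came from separate plantings, so p-values reflect only how far these 6 samples scatter, in part perhaps for technical reasons. HTR8 had 3.19, 5.20 and 5.03 TPM (transcript abundance per gene length, scaled to a total of 1000000 per library) in the h3.3ko;HTR5 libraries, against 315, 323 and 289 TPM in the Col libraries. HTR4 averaged 151 ± 3.29 TPM in h3.3ko;HTR5 and 321 ± 11 TPM in Col, and HTR5 295 ± 4.51 TPM in h3.3ko;HTR5 and 412 ± 9.97 TPM in Col (SD, n = 3 each).

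The Calvin cycle fixes carbon dioxide in the chloroplast stroma: Rubisco joins it to ribulose bisphosphate, the product is reduced to triose phosphate with ATP and NADPH, and most of the triose phosphate is rebuilt into the acceptor. Rubisco also accepts oxygen, which gives phosphoglycolate. Photorespiration recovers the carbon of that by-product in a chain of reactions through chloroplast, peroxisome and mitochondrion, with loss of carbon dioxide and ammonia in the mitochondrion. Both pathways run in the green tissue of a seedling, where the small Rubisco subunit is among the most abundant messenger RNAs.

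The small Rubisco subunit is encoded by 4 RBCS genes, whose sequences are shown first because the largest changes were among them. RBCS1A lies alone on chromosome 1 (25048158 to 25049667). The other 3 lie side by side on chromosome 5: RBCS3B (15376988 to 15378642), RBCS2B (15380907 to 15382071) and RBCS1B (15383167 to 15385320). All 4 are on the minus strand of TAIR10.1 and have 3 exons each in the RefSeq annotation. Their coding sequences are close to identical within the chromosome 5 group, at 96.7% to 97.3% between pairs, and 89.9% to 90.1% identical to RBCS1A. Coding bases 61 to 150 show how far the 3 can be told apart. Capitals mark the 10 positions of this stretch at which they differ, of 25 in all 546 coding bases.
RBCS1B: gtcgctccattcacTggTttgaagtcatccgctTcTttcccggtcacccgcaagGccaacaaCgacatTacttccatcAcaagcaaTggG
RBCS2B: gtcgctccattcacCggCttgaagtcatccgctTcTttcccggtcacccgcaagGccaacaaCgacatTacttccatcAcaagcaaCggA
RBCS3B: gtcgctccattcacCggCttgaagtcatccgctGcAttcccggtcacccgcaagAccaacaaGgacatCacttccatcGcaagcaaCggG
Of the 50-base windows over their exons, 12% of RBCS1B, 16.9% of RBCS2B and 16.5% of RBCS3B occurred at another of the 3 genes, against 0 of RBCS1A. Single values within the chromosome 5 group depend on how the counting treated reads from these windows.

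RBCS promoters are known for a pair of light-regulatory elements, the I-box (GATAAG) and the G-box (CACGTG), so both were searched on both strands in the 300 bases before each start codon, a window chosen after the sequences were seen. The 30 bases from the first I-box are given 5′ to 3′ on the gene's strand, with G-box and I-box letters in capitals.
RBCS1A, chr1:25049503-25049532: GATAAGattcatggaattatcttcCACGTG
RBCS1B, chr5:15385296-15385325: GATAAGATAAGggtgtcaacacctttcctt
RBCS2B, chr5:15382188-15382217: GATAAGattatggagttttctgcCACGTGa
RBCS3B, chr5:15378517-15378546: GATAAGataatggagttttctgcCACGTGg
RBCS1A, RBCS2B and RBCS3B held an I-box on the gene's strand followed by the G-box, both within a stretch of 30 bases. That arrangement was found in 14 of 27443 coding genes. The stretch is just long enough for the RBCS1A site, so this count is not independent of the RBCS genes. RBCS1B had overlapping I-boxes and no G-box in its window. In RBCS1A and RBCS3B the pair lies inside the longest annotated transcript. The 250 bases before the annotated start of RBCS2B (chr5:15382072-15382321, minus strand) show 1 G-box and 3 I-boxes in capitals, 1 of these on the other strand (CTTATC).
RBCS2B promoter: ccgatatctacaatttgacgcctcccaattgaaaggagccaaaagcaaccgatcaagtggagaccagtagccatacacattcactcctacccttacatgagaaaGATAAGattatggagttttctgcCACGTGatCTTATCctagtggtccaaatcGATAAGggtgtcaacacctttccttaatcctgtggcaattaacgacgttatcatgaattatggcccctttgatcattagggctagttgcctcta

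With limma on log2(TPM + 1) and Benjamini-Hochberg adjustment over 19013 tested genes, 3.7% of all genes passed the adjusted threshold of 0.05 as higher in the line and 8.32% as lower. Among the 1414 genes with a mean of at least 100 TPM (median SE of the log2 fold change 0.048, against 0.095 over all tested genes), these shares were 10.1% and 19.9%, and 37 of the 39 members are at that level. Of the members, 38 were tested, 7 rose and 0 fell. The 7 are RBCS2B, RBCS3B, RCA, HCEF1, CP12-1, AT1G80380 and CA1. The median log2 fold change was 0.04 over the members and -0.03 over all tested genes. The values of the line's libraries lay wholly above those of the Col libraries for 17 members and wholly below for 1, where 10.8% and 20.4% of all tested genes did so, and 17.0% and 36.1% of those with at least 100 TPM. The direction of change over all genes depends on scaling: 30.8% of the genes called were higher with TPM as deposited, 46.4% after quantile normalization, 42.8% with median-of-ratios size factors and 51.0% after removal of a length trend.

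**Figure D1:**
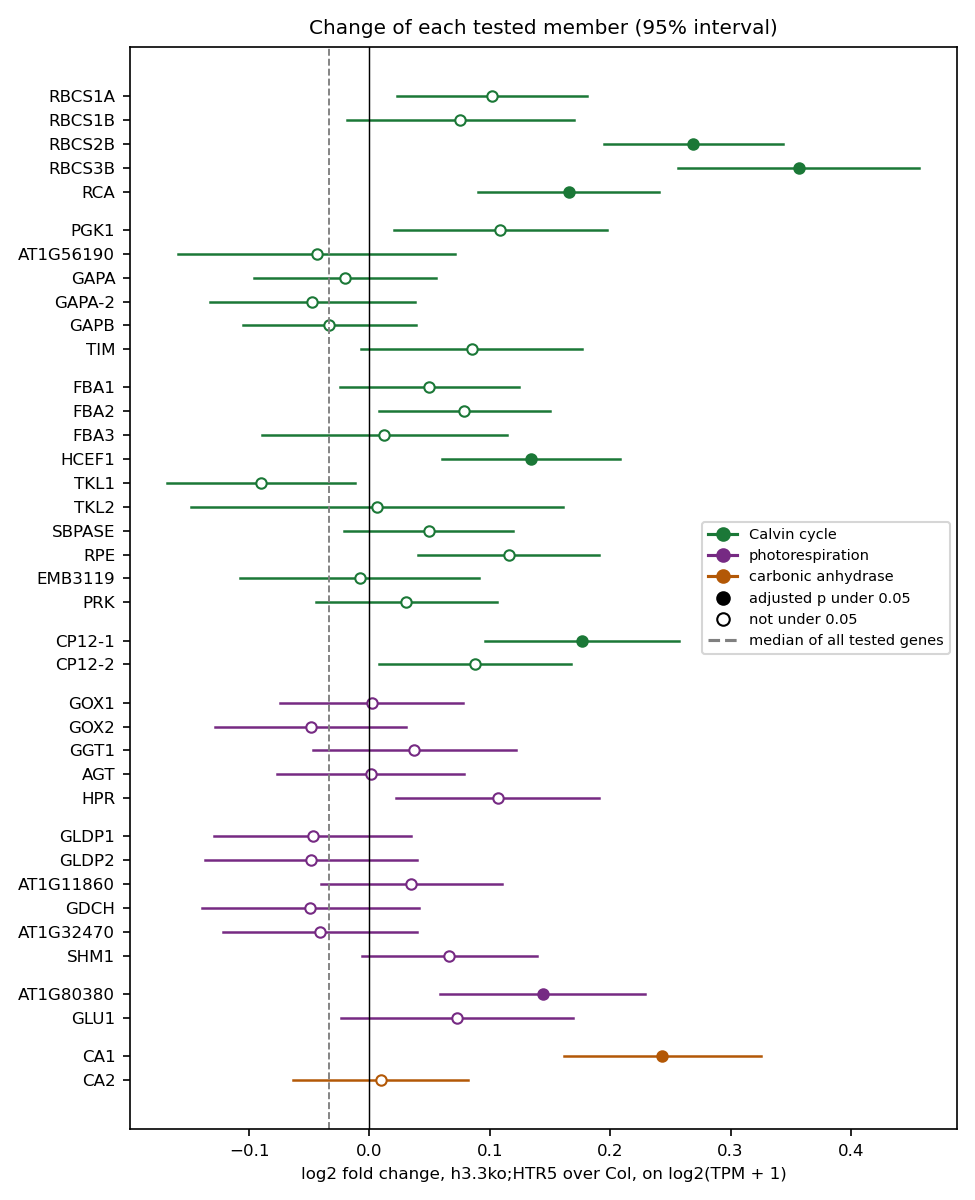
Log2 fold change (horizontal axis, h3.3ko;HTR5 over Col, on log2(TPM + 1)) of the 38 tested members, with 95% intervals, grouped by step from carboxylation at the top to carbonic anhydrase at the bottom. Filled points passed the adjusted threshold of 0.05 (5 Calvin cycle genes, 1 photorespiration gene and CA1, all to the right of 0), and the dashed line is the median of all tested genes.

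The libraries were close in size. Reads recovered from the TPM numbered 14038569, 14498093 and 13898956 in h3.3ko;HTR5, against 14364242, 13792031 and 13793387 in Col. Tested members had 773 to 237939 reads per library. Among markers of several tissues, LHCA1 of leaf and CRA1 of seed passed the test, both as higher in the line. The summed TPM of 4 leaf markers was 18414 to 19734 in h3.3ko;HTR5 and 17364 to 18341 in Col, a mean difference of 7.02%, and 1 of the 4, LHCA1, rose. The members HCEF1 and AT1G80380, called as higher, differed by 9.77% and 10.5%. Of 8 root markers none passed the test, and 4 estimates were above 0 and 4 below. PYK10 alone was at 1708 to 1881 TPM in h3.3ko;HTR5 and 1927 to 1947 TPM in Col, while the other 7 summed to 167 to 183 TPM in h3.3ko;HTR5 and 167 to 180 TPM in Col. The seed storage gene CRA1 was at 1.23 to 4.68 TPM in h3.3ko;HTR5 and 0.381 to 0.830 TPM in Col and rose (log2 fold change 1.21, limma adjusted p = 0.0292). The other seed genes, SESA3 (0.133 TPM in h3.3ko;HTR5 and 0 in Col) and OLEO1 (0.317 and 0.227 TPM), were too low to be tested. The 3 flower markers summed to 0.184 to 0.321 TPM in h3.3ko;HTR5 and 0.673 to 1.02 TPM in Col, also too low to be tested. That difference was in PI, at 0.178 TPM in h3.3ko;HTR5 and 0.745 TPM in Col. AP1 (0.0388 and 0.0389 TPM) and AG (0.0269 and 0.0274 TPM) were level. The guard cell gene FMA and the epidermal gene ATML1 lay wholly below Col without passing (limma adjusted p = 0.0954 and 0.0553). Their part in the results was not tested. In bulk tissue, fewer cells of a type and less RNA per cell cannot be told apart.

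Of the 5 carboxylation genes 3 rose, among them RBCS3B and RBCS2B with the largest changes of all members. RBCS3B had 13870, 12780 and 13750 TPM in the h3.3ko;HTR5 libraries, against 9968, 10831 and 10750 TPM in the Col libraries. Every library of the line was above every Col library, and the log2 fold change was 0.36 ± 0.045 (SE; limma adjusted p = 0.000982). RBCS2B showed 9525, 9280 and 9408 TPM in h3.3ko;HTR5, against 7574, 7950 and 7895 TPM in Col. The groups again did not overlap, with a log2 fold change of 0.27 ± 0.033 (limma adjusted p = 0.000912). This call held under all 17 alternatives tried.

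RBCS1A, the most abundant member, had 24443, 23488 and 24034 TPM in h3.3ko;HTR5, against 21599, 22945 and 22541 TPM in Col. Its groups did not overlap, but the log2 fold change of 0.10 ± 0.035 did not pass (limma adjusted p = 0.0954). For RBCS1B the values were 781, 753 and 770 TPM in h3.3ko;HTR5 and 696, 768 and 724 TPM in Col. These overlapped (log2 fold change 0.08, 95% interval -0.02 to 0.17, limma adjusted p = 0.292).

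Ratios between RBCS genes of the same library do not change when a library is scaled by 1 factor. RBCS3B over RBCS1A was 0.567, 0.544 and 0.572 in h3.3ko;HTR5, against 0.462, 0.472 and 0.477 in Col. RBCS2B over RBCS1A was 0.390, 0.395 and 0.391 in h3.3ko;HTR5, against 0.351, 0.346 and 0.350 in Col. Neither pair of groups overlapped, and each gave a two-sided exact permutation p of 0.1, the smallest that 3 against 3 allows. RBCS1B over RBCS1A was slightly lower in the line, at 0.0320 in h3.3ko;HTR5 and 0.0326 in Col. It too did not overlap and gave a permutation p of 0.1, which thus says nothing of the size of a difference. RBCS1A made up 50.4% ± 0.320 of the RBCS sum in h3.3ko;HTR5 and 54.0% ± 0.217 in Col, while RBCS3B made up 28.3% ± 0.579 in h3.3ko;HTR5 and 25.4% ± 0.326 in Col (SD, n = 3 each). RBCS2B and RBCS3B together, over RBCS1A, were at 0.953 ± 0.0126 in h3.3ko;HTR5 and 0.819 ± 0.0075 in Col, also without overlap. Quantile normalization, which is not such a scaling, reduced the log2 fold change of RBCS3B relative to RBCS1A to 0.08, against 0.26 as deposited, and that of RBCS2B to 0.11, against 0.17.

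RCA encodes Rubisco activase, the chaperone that frees Rubisco of inhibitory sugar phosphates. It had 12111, 11643 and 12303 TPM in h3.3ko;HTR5, against 10622, 10663 and 10856 TPM in Col. All 3 libraries of the line were higher (log2 fold change 0.17 ± 0.034, limma adjusted p = 0.0112). Leaving out replicate 1 or 3 of the line ended the call, with an adjusted p of 0.0639 or 0.0623. The call was also lost with no filter on low values and with no trend in the variance prior, and held under 12 of 17 alternatives. After quantile normalization the value was -0.07 (adjusted p = 0.126), and under that scaling RBCS3B no longer passed (0.07, adjusted p = 0.126) and RBCS1A was at -0.01. That scaling gives each rank the same value in every library, and RBCS1A, RBCS3B, RCA and RBCS2B rank 2, 4, 5 and 8 in mean TPM among all genes. RBCS3B lay above RCA in every h3.3ko;HTR5 library and in Col replicate 2, but below RCA in Col replicates 1 and 3. Under quantile normalization the changes of RCA and RBCS3B were equal in size and opposite in sign.

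**Figure D2:**
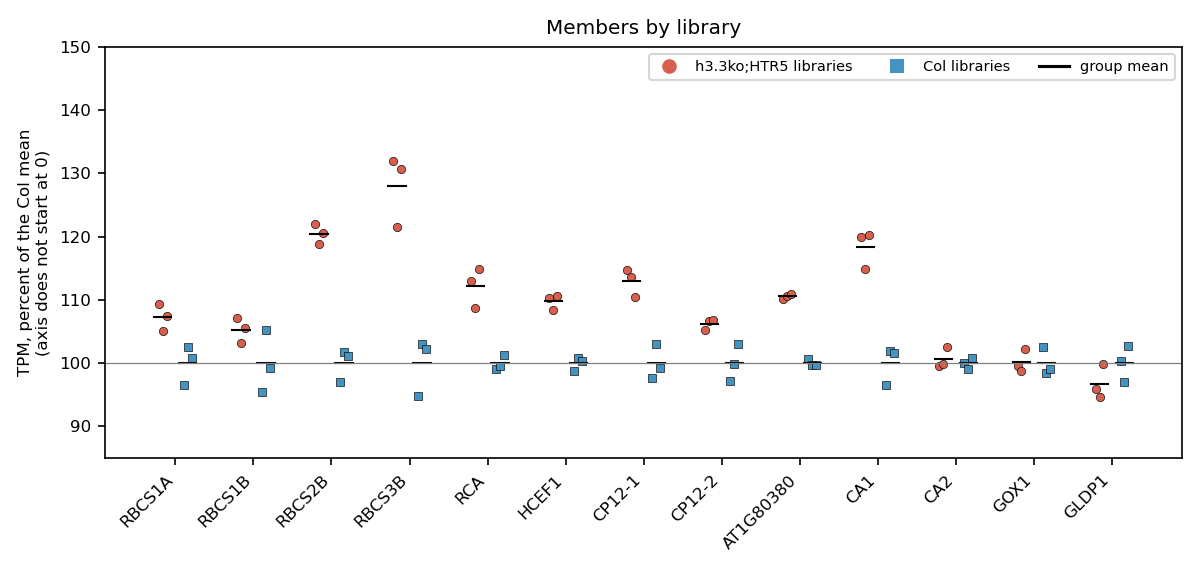
TPM of 13 members in each library, as a percentage of that gene's Col mean (vertical axis, which does not start at 0), where circles are the 3 h3.3ko;HTR5 libraries, squares the 3 Col libraries, and black lines the group means. RBCS3B, RBCS2B and CA1 stand furthest above 100%, while CA2, GOX1 and GLDP1 overlap between the groups.

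None of the 6 reduction genes passed the test. The 3 subunit genes of the plastid glyceraldehyde-3-phosphate dehydrogenase, which spends the NADPH, had estimates of -0.05 to -0.02. GAPA had 3131, 3135 and 3141 TPM in h3.3ko;HTR5, against 3071, 3241 and 3233 TPM in Col (log2 fold change -0.02, limma adjusted p = 0.759). GAPA-2 and GAPB were at -0.05 and -0.03. With median-of-ratios scaling GAPA and GAPB turned to 0.02 and 0.01, neither of which passed the test. The ratio of the A subunit genes to GAPB was 2.64 ± 0.0436 in h3.3ko;HTR5 and 2.64 ± 0.0819 in Col (exact permutation p = 0.9). The plastid phosphoglycerate kinase PGK1 was at 0.11 (adjusted p = 0.109), its paralogue AT1G56190 at -0.04, and the plastid triose phosphate isomerase TIM at 0.08. PGK1 had 1050, 999 and 1010 TPM in h3.3ko;HTR5, all above its 923, 987 and 927 TPM in Col.

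Of the 10 genes that regenerate the acceptor, 1 rose. HCEF1, the plastid fructose-1,6-bisphosphatase, had 782, 768 and 784 TPM in h3.3ko;HTR5, against 700, 715 and 711 TPM in Col. Its log2 fold change was 0.13 ± 0.033 (limma adjusted p = 0.0268). Leaving out 1 library at a time ended the call in 4 of 6 cases: the adjusted p was 0.0953 and 0.106 without replicate 1 or 3 of the line, 0.0612 without Col replicate 2 and 0.0789 without Col replicate 3. RPE, ribulose-phosphate 3-epimerase, had 600, 588 and 592 TPM in h3.3ko;HTR5, against 552, 550 and 541 TPM in Col. It missed the threshold (0.12, adjusted p = 0.052). HCEF1 shares 167 bases with AT3G54060 on the opposite strand, which reached at most 1.27 TPM.

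The sister bisphosphatase SBPASE, which acts on sedoheptulose bisphosphate, had 1158, 1150 and 1155 TPM in h3.3ko;HTR5 and 1115, 1124 and 1108 TPM in Col. The groups did not overlap, at a log2 fold change of 0.05 with a 95% interval of -0.02 to 0.12. Transketolase TKL1, which moves 2-carbon units between sugars, was the 1 member with all libraries of the line below Col. Its values were 1148, 1110 and 1175 TPM in h3.3ko;HTR5, against 1216, 1228 and 1209 TPM in Col (log2 fold change -0.09, limma adjusted p = 0.129). The aldolases FBA1, FBA2 and FBA3 were at 0.05, 0.08 and 0.01, ribose-5-phosphate isomerase EMB3119 at -0.01, TKL2 at 0.01, and phosphoribulokinase PRK, the enzyme that makes the acceptor, at 0.03. PRK had 1814, 1831 and 1880 TPM in h3.3ko;HTR5 and 1762, 1825 and 1822 TPM in Col, so its groups overlapped.

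CP12 proteins tie PRK and glyceraldehyde-3-phosphate dehydrogenase into an inactive complex in the dark. CP12-1 had 1071, 1061 and 1031 TPM in h3.3ko;HTR5, against 912, 962 and 926 TPM in Col. The 3 libraries of the line were all higher (log2 fold change 0.18 ± 0.036, limma adjusted p = 0.0117). Without replicate 1 of the line the adjusted p was 0.0553. CP12-2 had 904, 917 and 919 TPM in h3.3ko;HTR5 and 835, 858 and 886 TPM in Col, without overlap, but did not pass (0.09, adjusted p = 0.145). The partners that CP12 binds, PRK, GAPA and GAPB, did not pass the test either.

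The 2 carbonic anhydrases, which interconvert carbon dioxide and bicarbonate, were measured apart, and 1 rose. CA1, whose protein is in the chloroplast, had 2872, 2752 and 2882 TPM in h3.3ko;HTR5, against 2311, 2440 and 2435 TPM in Col. Its log2 fold change was 0.24 ± 0.037 (limma adjusted p = 0.00253), and the call held without any 1 of the 6 libraries. CA2 had 1169, 1174 and 1205 TPM in h3.3ko;HTR5 and 1175, 1165 and 1185 TPM in Col. Those overlapped, with an interval of -0.06 to 0.08 around a log2 fold change of 0.01. CA1 over CA2 was 2.46, 2.34 and 2.39 in h3.3ko;HTR5, against 1.97, 2.1 and 2.06 in Col, without overlap (exact permutation p = 0.1, the smallest possible). The annotation places 343 bases of CA1 under a neighbour on the same strand, AT3G01510, which reached at most 15.5 TPM.

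In photorespiration, 1 of the 13 tested genes rose and 0 fell. AT1G80380, glycerate kinase, closes the pathway in the chloroplast by returning glycerate to the Calvin cycle. It had 182, 183 and 183 TPM in h3.3ko;HTR5, against 166, 165 and 165 TPM in Col (log2 fold change 0.14 ± 0.038, limma adjusted p = 0.0364). The groups did not overlap, and the call was lost in 5 of 6 cases when 1 library was left out. The adjusted p was 0.0949, 0.082 and 0.12 without replicate 1, 2 or 3 of the line, and 0.0912 and 0.104 without Col replicate 2 or 3. GLU1, the ferredoxin-dependent glutamate synthase, which makes glutamate as the released ammonia is recovered, had 565, 543 and 584 TPM in h3.3ko;HTR5 and 561, 523 and 525 TPM in Col.

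PGLP1, phosphoglycolate phosphatase, is the first enzyme of the pathway, yet AT5G36700 was at 0.0757 ± 0.0273 TPM in h3.3ko;HTR5 and 0.0306 ± 0.0265 TPM in Col and was not tested. All of its 1627 exon windows of 50 bases also occur at AT5G36790, so reads of this sequence cannot be placed. AT5G36790 itself was listed at 9.18, 3.34 and 5.01 TPM in h3.3ko;HTR5 and 3.90, 4.92 and 2.27 TPM in Col. The level of this enzyme's messenger RNA is therefore not measured here.

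None of the 5 peroxisomal genes passed the test. GOX1 and GOX2 encode glycolate oxidases. GOX1 had 1714, 1699 and 1759 TPM in h3.3ko;HTR5 and 1766, 1693 and 1705 TPM in Col (log2 fold change 0.00, 95% interval -0.07 to 0.08), and GOX2 was at -0.05. GOX1 over GOX2 was 2.03, 2.02 and 2.04 in h3.3ko;HTR5, against 1.95, 1.95 and 1.98 in Col, without overlap (exact permutation p = 0.1, the smallest possible). The aminotransferases GGT1 and AGT, which make glycine from glyoxylate, were at 0.04 and 0.00. Hydroxypyruvate reductase HPR had 1251, 1171 and 1255 TPM in h3.3ko;HTR5, against 1133, 1153 and 1127 TPM in Col. The groups of HPR did not overlap, but it did not pass (0.11, limma adjusted p = 0.1). Without replicate 2 of the line it passed (adjusted p = 0.0447).

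None of the 6 genes of the mitochondrial steps passed the test. The P-protein of glycine decarboxylase is encoded by GLDP1 and GLDP2. GLDP1 had 2736, 2699 and 2850 TPM in h3.3ko;HTR5 and 2861, 2770 and 2930 TPM in Col (log2 fold change -0.05, 95% interval -0.13 to 0.04), and GLDP2 was also at -0.05. GLDP1 over GLDP2 was 3.45 ± 0.0417 in h3.3ko;HTR5 and 3.44 ± 0.0935 in Col (exact permutation p = 1.0). The H-proteins GDCH and AT1G32470 were at -0.05 and -0.04, and the T-protein AT1G11860 at 0.03. SHM1, the serine hydroxymethyltransferase that works with the complex, had 1546, 1496 and 1535 TPM in h3.3ko;HTR5, against 1455, 1475 and 1440 TPM in Col, without overlap (0.07, adjusted p = 0.228). For 12 of the 13 tested photorespiration genes the 95% interval lay within 0.2 of 0 on the log2 scale.

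The Calvin cycle had 5 genes higher of 23 and a median log2 fold change of 0.08, against 1 of 13 and 0.00 for photorespiration. The medians lay closer together without Col replicate 1, at 0.0488 and 0.0205, and after quantile normalization, at 0.0514 and 0.0274. Of all genes 3.7% were higher, and of those with at least 100 TPM 10.1%, so the photorespiration count is near the background. Without the RBCS genes and RCA, 2 of 18 Calvin cycle genes were higher, also near the 10.1%, and the median was 0.04. The 4 RBCS genes summed to 4.86%, 4.63% and 4.80% of all TPM in h3.3ko;HTR5, against 3.98%, 4.25% and 4.19% in Col. The 18 other Calvin cycle genes besides RCA summed to 2.44% ± 0.0234 in h3.3ko;HTR5 and 2.38% ± 0.0431 in Col, and the 14 photorespiration genes to 1.53% ± 0.0282 in h3.3ko;HTR5 and 1.52% ± 0.0158 in Col (SD, n = 3 each). The ratio of Calvin cycle to photorespiration TPM was 5.59, 5.47 and 5.44 in h3.3ko;HTR5, against 4.80, 5.13 and 5.08 in Col. These did not overlap (exact permutation p = 0.1, the smallest possible). With RBCS and RCA left out of the sum, the ratio was 1.61, 1.61 and 1.58 in h3.3ko;HTR5 and 1.52, 1.6 and 1.58 in Col, which overlapped (exact permutation p = 0.4).

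**Figure D3:**
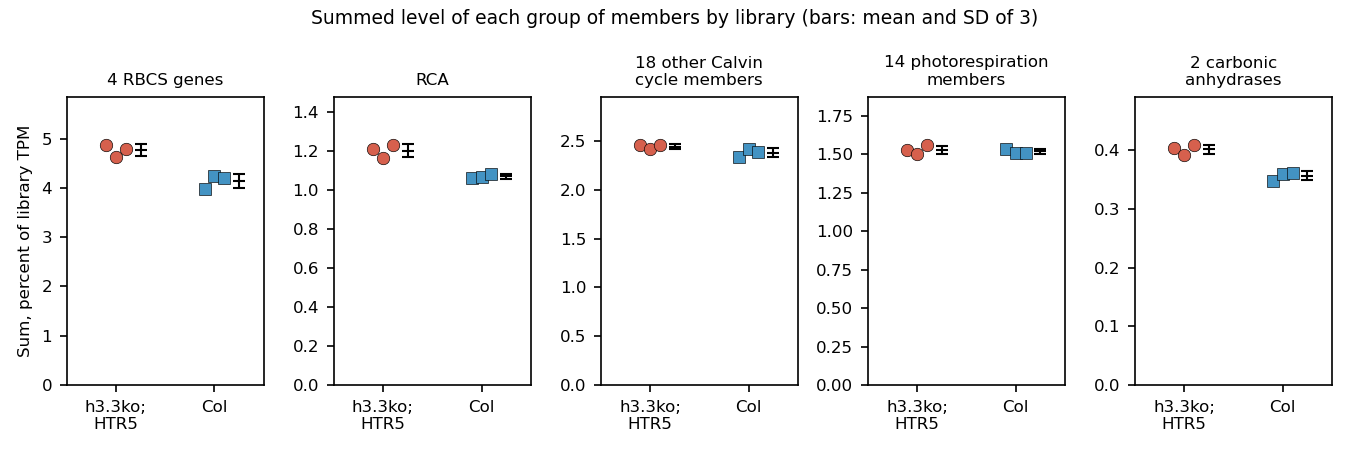
Summed TPM of 5 groups of members, as a percentage of all TPM in the library (vertical axes start at 0), with the 3 h3.3ko;HTR5 libraries left and the 3 Col libraries right in each panel and bars for mean and SD. The RBCS, RCA and carbonic anhydrase sums do not overlap between genotypes, whereas the photorespiration sums do.

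The levels themselves span a wide range when computed per exon length, a scale that leaves introns out. That length joins all annotated exons of a gene. It is 1894 bases for RBCS1B, 1410 for RBCS3B and 935 for RBCS2B, though each has 546 coding bases. Levels and ranks between genes thus depend in part on the annotation. RBCS1A led at 21814 ± 488 TPM in h3.3ko;HTR5 and 20260 ± 631 in Col, followed in both genotypes by RCA, RBCS3B, RBCS2B and FBA2. RCA and RBCS3B, at 12873 ± 386 and 12071 ± 562 TPM in h3.3ko;HTR5, differ by less than the sum of their SDs. RBCS1B stood at rank 30 of 39 in both genotypes, at 667 ± 13.9 TPM in h3.3ko;HTR5 and 631 ± 31.5 TPM in Col. The lowest tested member was TKL2, at 29.5 ± 1.99 TPM in h3.3ko;HTR5 and 29.2 ± 1.35 TPM in Col. The median member was at 1036 TPM in h3.3ko;HTR5 and 1099 TPM in Col for the Calvin cycle, and at 1096 TPM in h3.3ko;HTR5 and 1066 TPM in Col for the 13 photorespiration genes tested. The Calvin cycle median was TKL1 in both genotypes, the member that lay wholly below Col. The summed Calvin cycle TPM as deposited was 10.7% higher in h3.3ko;HTR5 than in Col. Ranks differed by at most 2 places between the genotypes: CA1 was at rank 7 in h3.3ko;HTR5 and 9 in Col, and AT1G56190 at rank 37 in h3.3ko;HTR5 and 35 in Col.

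**Figure D4:**
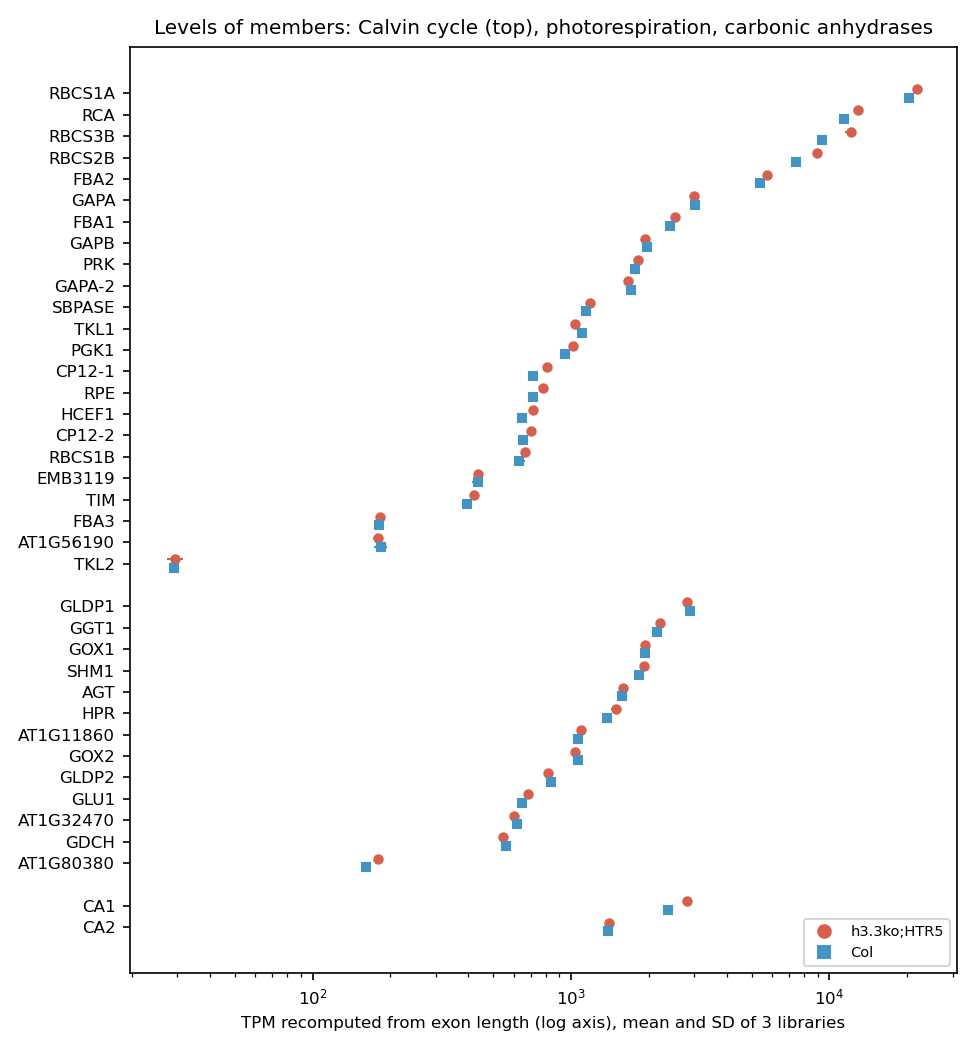
Levels of 38 members as TPM recomputed from exon length (horizontal log axis), mean and SD of 3 libraries, with circles for h3.3ko;HTR5 above squares for Col, Calvin cycle genes on top. RBCS1A, RCA, RBCS3B and RBCS2B are the 4 highest, and photorespiration genes lie between 179 TPM (AT1G80380) and 2806 TPM (GLDP1) in h3.3ko;HTR5.

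Upstream sequences of the members were counted for the same motifs, as a description with no test. In the 300 bases before the start codon, 9 of 23 Calvin cycle genes held a G-box and 13 of 23 an I-box, against 0 of 14 photorespiration genes for each and 0 of the 2 carbonic anhydrases. Of all coding genes, 6.28% held a G-box and 15.4% an I-box. The count depends on the window: in the 250 bases before the annotated gene start, 4 Calvin cycle and 2 photorespiration genes held a G-box, against 6.49% of all genes. An I-box was held there by 4 of 23 Calvin cycle genes and 1 of 14 photorespiration genes, against 12.3% of all genes. A further count was made once the calls were known. All 5 Calvin cycle genes that rose (RBCS2B, RBCS3B, RCA, HCEF1 and CP12-1) were among the 9 with a G-box before the start codon, and 0 of the 14 without one rose. The other 4 with a G-box were RBCS1A, FBA1, SBPASE and RPE. For the I-box, 4 of the 13 with one and 1 of the 10 without rose. In the window before the gene start the split was not clean: 2 of 4 with a G-box and 3 of 19 without rose, as did 3 of 4 with an I-box and 2 of 19 without. Over all tested coding genes, 5.34% of 1367 with a G-box were higher and 11.8% lower, against 3.54% and 8.09% of 17556 without. Among those with at least 100 TPM, 10.3% of 194 with a G-box and 10.1% of 1217 without were higher. Of all 3028 tested coding genes with an I-box, 5.35% were higher and 8.36% lower, against 3.35% and 8.35% of 15895 without. With at least 100 TPM, 12.3% of 383 with an I-box were higher and 13.8% lower, against 9.34% and 22.2% of 1028 without. A match of letters is a description and says nothing of binding.

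Outside the 39 members, 44 further genes of these pathways were looked at. In the list of Rubisco assembly and redox control 1 of 21 genes rose and 1 fell, counts near or below the shares of all genes (3.7% higher and 8.32% lower). TRXF2, a thioredoxin f that activates Calvin cycle enzymes in the light, had 125, 122 and 126 TPM in h3.3ko;HTR5, against 99.0, 103 and 99.9 TPM in Col (log2 fold change 0.30 ± 0.043, limma adjusted p = 0.00194). Its ratio to TRXF1 was 0.442 ± 0.0139 in h3.3ko;HTR5 and 0.350 ± 0.00528 in Col (exact permutation p = 0.1). CPN60B, a subunit of the chaperonin that folds the large Rubisco subunit, fell by 0.19 (adjusted p = 0.0393). The TRXF2 call held without any 1 of the 6 libraries, whereas that of CPN60B was lost without any 1 of 5, Col replicate 1 being the exception (adjusted p 0.0528 to 0.147). The large subunit itself, chloroplast gene ATCG00490, had 165.7, 22.4 and 27.5 TPM in h3.3ko;HTR5 and 33.6, 28.1 and 30.5 TPM in Col, and was not called. In the library with 165.7 TPM, replicate 1 of the line, chloroplast-encoded genes took 0.316% of TPM, against 0.0991% to 0.117% in the other 5.

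In the photorespiration list 3 of 19 further genes rose and 1 fell, where 3.7% of all genes were higher and 8.32% lower, and 10.1% and 19.9% of those with at least 100 TPM. The risers were LrgB, the plastid glycolate and glycerate transporter (0.17, limma adjusted p = 0.023), AT4G22840, a plastid transporter known for glycolate (0.47, adjusted p = 0.0339, at 8.35 ± 0.496 TPM in h3.3ko;HTR5 and 5.78 ± 0.958 TPM in Col), and mtLPD1, the L-protein of glycine decarboxylase (0.14, adjusted p = 0.0397). BOU, a mitochondrial carrier needed for glycine decarboxylase activity, had 171, 177 and 172 TPM in h3.3ko;HTR5, against 199, 210 and 203 TPM in Col. It fell by 0.23 ± 0.041 (adjusted p = 0.00547). None of the 4 further carbonic anhydrases passed. The BOU call held without any 1 library. That of LrgB was lost without replicate 1 or 3 of the line or Col replicate 2 (adjusted p = 0.0732, 0.103 and 0.0801), that of AT4G22840 in every case but Col replicate 2 (0.0534 to 0.102), and that of mtLPD1 in every case but replicate 2 of the line (0.0537 to 0.14).

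**Figure D5:**
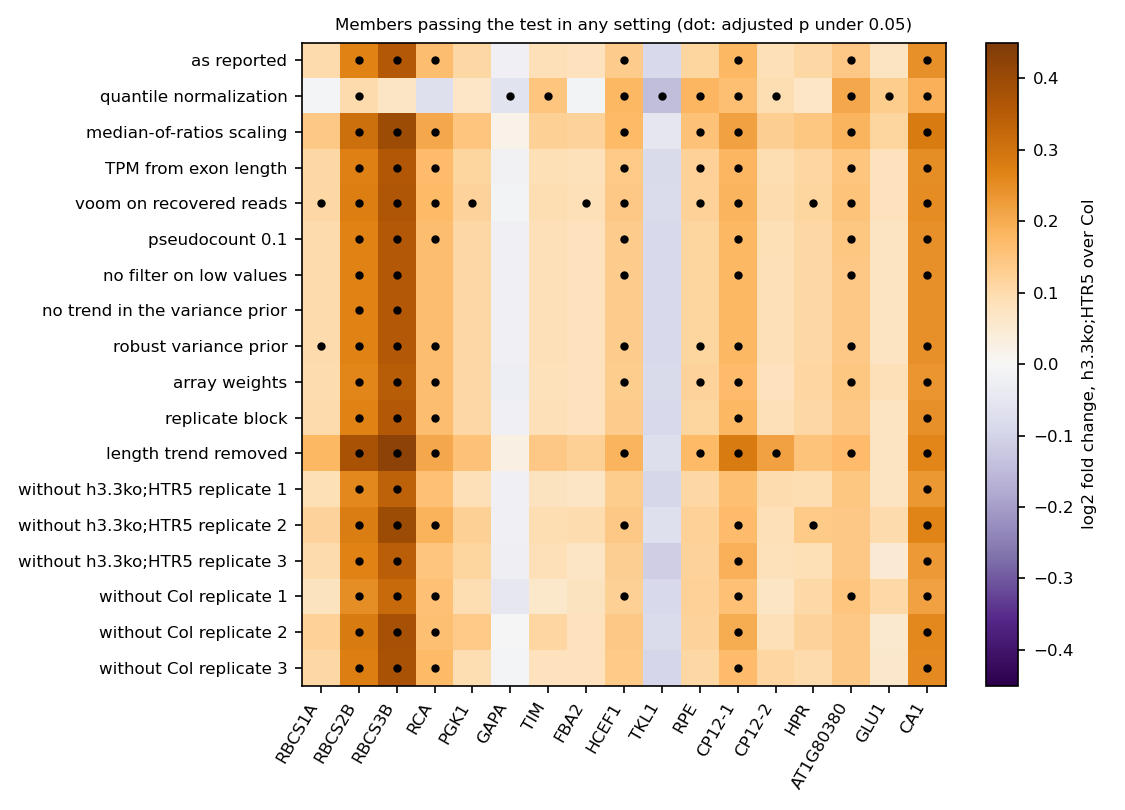
Log2 fold change (colour, h3.3ko;HTR5 over Col) of the 17 members that passed the test in any setting, one row for each way of processing, where a dot marks an adjusted p under 0.05. RBCS2B passed in every row and RBCS3B in all but quantile normalization, while GAPA and TKL1 passed as lower under quantile normalization and in no other row.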

How the data were processed

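RNA from whole seedlings was sequenced in 6 libraries. Per the submitters' processing notes, fastp 0.20.1 and HISAT2 2.1.10 were used, with TAIR10 as the build and DESeq2 1.26.0 among the tools. Which tool counted reads, and whether by strand, is not stated in the sources used here. TPM values were deposited by the authors in a single table. With gene span, introns included, as the length, 22980 of 22985 expressed genes gave whole read numbers in every library, to within 0.02 reads, so deposited TPM understate genes with long introns. Levels were therefore compared between genes with TPM recomputed from exon length of the RefSeq TAIR10.1 annotation, to which 27445 identifiers matched. Sequences are also from RefSeq TAIR10.1.

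Changes were tested with limma 3.58.1 (R 4.3.3) on log2(TPM + 1), with a variance trend, two-sided, over the 19013 genes with a mean of at least 1 TPM, and adjusted by Benjamini-Hochberg. Fold changes are on that scale. The limma step was tested on simulated counts. Changes set there were larger than that of any tested member, so the simulation does not gauge calls of their size. No 2 libraries of a genotype agreed within sampling noise (chi-square per degree of freedom 2.13 to 3.91). Ratios were compared by exact permutation over samples. Of the other pathway genes, those called and ATCG00490 are named. Members and lists were chosen with earlier results of these data known. As many as 13 members overlap an annotated neighbour, whose reads may be mixed with theirs. Alternatives are given in the closing section. Intervals cover these samples only.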

Additional observations from a re-analysis of the deposited data

How the results depend on the processing

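Of the 7 members that rose, RBCS2B passed under all 17 alternatives. Calvin cycle genes higher numbered 9 with voom on recovered reads, 2 without a trend in the variance prior and 2 to 5 when 1 library was left out (2 without h3.3ko;HTR5 replicate 1 and 3 without h3.3ko;HTR5 replicate 3), and 2 were lower after quantile normalization. Photorespiration genes higher numbered 2 with quantile normalization or voom, 0 without a trend, and 0 to 1 with 1 library left out. No carbonic anhydrase passed without a trend. Of the other pathway genes, 1 was higher without a trend, 7 after removal of the length trend (an alternative chosen after seeing the data) and 1 to 3 with 1 library left out. Lower were 0 without a trend, 1 with quantile normalization, median-of-ratios scaling, no filter on low values or the length trend removed, and 1 to 4 with 1 library left out. Over all genes, 414 were higher and 1029 lower without a trend and 1246 higher with the length trend removed, while leaving out 1 library gave 356 to 756 higher and 933 to 1341 lower. The Calvin cycle median of 0.0755 was 0.0514 after quantile normalization, 0.115 with median-of-ratios scaling and 0.12 with the length trend removed, and 0.0488 to 0.0849 with 1 library left out. The photorespiration median of 0.00211 was 0.0274, 0.0417 and 0.0709 under those 3 settings, and -0.0125 to 0.0205 with 1 library left out. RCA turned to -0.0688 under quantile normalization, the 1 reversal among the 7 called members. RBCS3B, its neighbour in rank, was at 0.0688 under that setting. Of the 31 tested members that were not called, 16 changed sign under at least 1 alternative that kept all libraries, with sizes of at most 0.0933 after the change. The causes were not tested. Same-numbered libraries of the genotypes did not deviate together (correlations of -0.04, 0.02 and -0.01). Such values cannot show whether libraries of the same number shared a planting. With the replicate number as a block, 547 genes were higher and 1304 lower, 5 Calvin cycle members became 4, photorespiration had 0 and the other pathway genes had 1 lower.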
